A study of Mus musculus with 3 samples.

Results

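CELF1 binding sites present in adult heart and adult muscle but not in cultured myoblasts were examined. They were the 12044 CLIP clusters of the muscle list, of 24844 in all (48.5%, 95% interval 47.9% to 49.1%), that overlapped a heart cluster by at least 1 base on their own strand and touched no myoblast cluster. These members were chosen by the measured overlap itself, so their number is a description and not a finding. They lay in 3542 of the 5341 genes with a muscle cluster (66.3%). Over the 3 lists together there were 72222 clusters. The other muscle clusters were 11486 that met no cluster of either other list (muscle alone), 1071 that met both (shared by all 3 libraries) and 243 that met a myoblast cluster only.

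CELF1 (also CUGBP1) belongs to the CELF family of RNA-binding proteins. It binds uridine- and guanosine-rich RNA, directs alternative splicing in the nucleus, and from 3' UTRs in the cytoplasm promotes mRNA decay and affects translation. In heart and skeletal muscle its protein level falls after birth, and its excess is a feature of myotonic dystrophy. MBNL proteins act on many of the same transcripts in the opposite sense.

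CLIP-seq joins RNA to bound protein with UV light at 254 nm, and the RNA pulled down with the protein is sequenced. The antibody was clone 3B1 against endogenous CELF1. Heart ventricle and muscle came from C57/BL6 mice aged 16 weeks, no transgene or treatment is given for them, and the labels name neither the muscle nor how many animals were used. C2C12 is a mouse line of muscle precursor cells grown in culture, and each source gave 1 library. A difference between libraries therefore has no replicate check, source and library cannot be told apart, and all intervals (exact Clopper-Pearson, 95%) cover counting error only, with several clusters of 1 gene not independent of each other.

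The lists were of very unequal length. Heart had 42263 clusters in 6857 genes, muscle 24844 in 5341 and myoblasts 5115 in 2754, and the median widths were 55, 54 and 38 nt. The files hold no read numbers, so the reads behind a cluster are unknown. Per the study's text, uniquely mapped reads were about as many for myoblasts as for heart and fewer for muscle. Why the myoblast list was short was not tested. UGU, the core of the CELF1 site, was in 88.9% of windows around the midpoint of clusters found in myoblasts alone. For clusters found in muscle alone the share was 98.0%. A cluster missing from the myoblast list was not detected there. Low expression of the gene, weak binding and library quality cannot be told apart. Lists of genes that mark the sources were set beside the labels by their number of clusters. These lists were chosen with earlier results of these data known, so this is not an independent check. Of the measured genes, 21 of 21 heart-enriched genes had the most in heart and 25 of 28 skeletal-muscle-enriched genes the most in muscle. Of the myoblast and proliferation genes, 17 of 28 had the most in myoblasts. Heart had the longest list, and the matching shares over all genes are not given here. Ryr2, the cardiac ryanodine receptor, had 252 heart clusters and 0 in muscle and myoblasts. Neb, for nebulin of the skeletal thin filament, had 50 muscle clusters and 0 in the others, and Hmga2, a growth gene of dividing cells, had 26 myoblast clusters, 1 in heart and 0 in muscle. The cyclin gene Ccnd2 went the other way, with 18 heart, 4 muscle and 1 myoblast clusters.

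The sequences of leading members are shown first because they display the letters that recur below. For 4 of the 5 genes with the most members, the member with the most UGU is given, so these are extremes of the class. They are given as RNA, 5' to 3', read from the mm9 (NCBIM37) genome, and capitals mark every UGU, the core of the CELF1 site. All 4 lie in introns.
Ttn: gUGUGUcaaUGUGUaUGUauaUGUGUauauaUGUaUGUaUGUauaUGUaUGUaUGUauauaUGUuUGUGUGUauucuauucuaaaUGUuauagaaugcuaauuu
Dmd: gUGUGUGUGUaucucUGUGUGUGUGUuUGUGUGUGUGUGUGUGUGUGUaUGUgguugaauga
Rora: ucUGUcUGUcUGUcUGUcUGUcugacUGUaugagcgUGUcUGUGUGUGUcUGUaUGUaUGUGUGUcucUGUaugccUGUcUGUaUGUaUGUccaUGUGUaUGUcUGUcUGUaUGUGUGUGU
Sox6: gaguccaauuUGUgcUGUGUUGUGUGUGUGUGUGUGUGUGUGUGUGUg

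The Ttn site is at chr2:76691312-76691415 (-), 68 nt from an exon by its midpoint, and holds 18 UGU in 104 nt. The Dmd site, at chrX:80240348-80240409 (+), is 45892 nt from an exon and holds 20, with an alternating UG run of 21 nt. In Rora, at chr9:68595227-68595347 (+), 30 UGU occur largely in repeats of UCUG and UAUG rather than in 1 long UG run. Sox6, at chr7:123120311-123120358 (-), has 16 in 48 nt with a UG run of 28 nt. A heart cluster covered 48 of the 104 bases in Ttn, 62 of 62 in Dmd, 91 of 121 in Rora and 44 of 48 in Sox6.

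In genes that myoblasts also bound at several places, a member can be set beside the nearest myoblast cluster of the same gene. The first 5 genes by number of members among those with at least 5 myoblast clusters were Pdlim5, Tnrc6b, Mbnl1, Atxn1 and Fto, and the member with the most UGU is shown for each, followed by the nearest myoblast cluster.
Pdlim5 member: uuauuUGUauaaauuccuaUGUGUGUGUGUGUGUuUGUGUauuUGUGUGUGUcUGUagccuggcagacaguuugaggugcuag
Pdlim5 myoblast: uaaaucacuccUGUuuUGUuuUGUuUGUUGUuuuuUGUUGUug
Tnrc6b member: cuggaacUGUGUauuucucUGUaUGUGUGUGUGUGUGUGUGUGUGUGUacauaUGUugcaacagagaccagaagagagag
Tnrc6b myoblast: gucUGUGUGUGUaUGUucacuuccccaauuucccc
Mbnl1 member: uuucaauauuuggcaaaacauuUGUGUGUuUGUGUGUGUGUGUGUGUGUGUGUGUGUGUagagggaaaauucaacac
Mbnl1 myoblast: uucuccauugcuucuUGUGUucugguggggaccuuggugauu
Atxn1 member: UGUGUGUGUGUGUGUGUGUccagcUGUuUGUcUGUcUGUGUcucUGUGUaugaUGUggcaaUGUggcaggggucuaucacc
Atxn1 myoblast: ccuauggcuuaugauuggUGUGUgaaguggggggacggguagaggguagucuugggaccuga
Fto member: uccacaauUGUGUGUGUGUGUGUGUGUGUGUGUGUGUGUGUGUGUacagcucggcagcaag
Fto myoblast: agauucugaagUGUugaaacguuacUGUGU

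These members held 15, 16, 17, 18 and 18 UGU, and the nearest myoblast clusters 7, 5, 2, 2 and 4. The member was picked for its UGU and the myoblast cluster was not, so the gap between them is a result of the choice. Most of these myoblast clusters also met a heart cluster, so they are not sites of myoblasts alone. A heart cluster covered 31 of 43 bases in Pdlim5, 42 of 42 in Mbnl1, 31 of 62 in Atxn1 and 49 of 49 in Fto. In Tnrc6b it covered 0 of 35. In Pdlim5 the pair is chr3:142053605-142053687 (-) and chr3:142013176-142013218 (-), both intronic and 40386 nt apart. In Mbnl1 it is chr3:60335679-60335755 (+) and chr3:60350948-60350989 (+), both intronic and 15192 nt apart. In Atxn1 it is chr13:45942212-45942292 (-) and chr13:45823467-45823528 (-), both intronic and 118683 nt apart. The Tnrc6b member, chr15:80545721-80545800 (+), lies before the annotated gene start, and the intronic myoblast cluster at chr15:80660822-80660856 (+) is 115021 nt away. The Fto member, chr8:94085458-94085518 (+), is intronic with a UG run of 37 nt, and its myoblast neighbour is in the 3' UTR, where the 30 bases with the most UGU are shown (chr8:94190480-94190509 (+)).

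How far a member and its heart cluster coincide is partly fixed by the rule, which requires an overlap of clusters of similar width, and is given as a description. A member shared a median of 49.5 bases with its heart cluster (quartiles 40 and 63), the midpoints were a median of 9 nt apart, and 82.2% shared at least 50% of both clusters. 4052 members (33.6%) lay wholly inside a heart cluster, and 902 met more than 1. At the edge of the rule, 116 members shared at most 5 bases with heart, 25 of them exactly 1, and 179 muscle clusters were left out although a heart cluster ended within 5 nt. On the myoblast side, 34 members had a myoblast cluster within 5 nt, and 24 muscle clusters were left out for sharing at most 5 bases with one. The heart cluster carried the same gene identifier for 12043 members. 97 members repeated 14 intervals that the files list under up to 22 genes each, and 22 of the 28 genes that held only such members were protocadherins, cell adhesion genes of which many share their last exons. Their binding cannot be assigned to 1 gene, and with each interval counted once 11961 members remained.

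Members lay mostly in 3' UTRs, and more often so than clusters found in muscle alone. Of the members, 56.4% (55.6% to 57.3%) were in 3' UTRs, 36.8% (36.0% to 37.7%) in introns, 4.51% in coding exons and 0.490% in 5' UTRs. Clusters found in muscle alone were in 3' UTRs in 41.2% (40.3% to 42.1%) and in introns in 51.9%. Clusters shared by all 3 libraries were in 3' UTRs in 73.3% (70.5% to 75.9%) and in introns in 23.4%. The members thus lay between these 2 classes, outside the counting interval of each. The 243 muscle clusters that met a myoblast cluster only were near the members, with 57.2% (50.7% to 63.5%) in 3' UTRs and 39.9% in introns. Over whole lists, 33.0% of heart, 50.1% of muscle and 34.0% of myoblast clusters were in 3' UTRs.

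**Figure D1:**
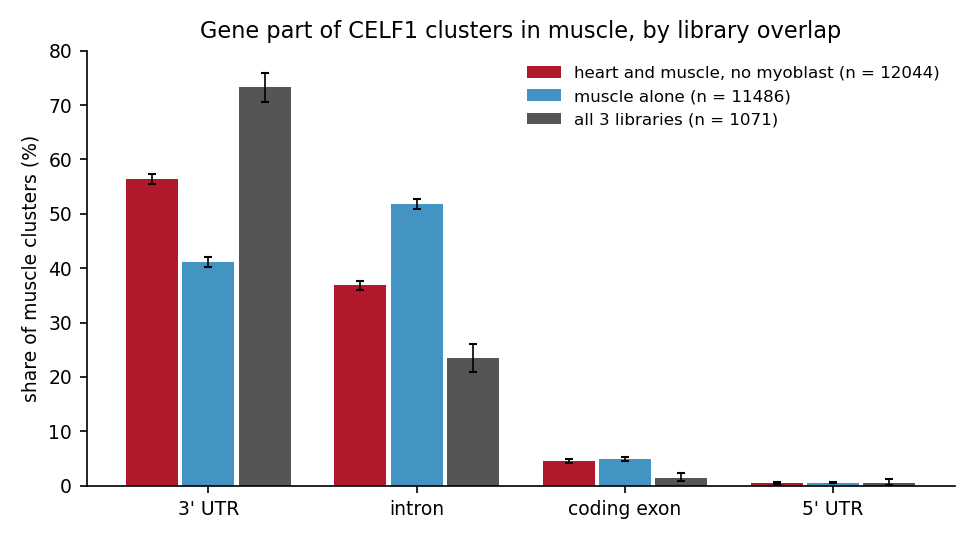
The share of muscle clusters (vertical axis, percent) by gene part, for members (red), clusters of muscle alone (blue) and clusters shared by all 3 libraries (grey), with exact 95% intervals. Members are at 56.4% in 3' UTRs, between 41.2% and 73.3%, and at 36.8% in introns, between 51.9% and 23.4%.

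The order also held inside single sets of genes. In the 2514 genes with both members and muscle-alone clusters, 55.1% of the members were in 3' UTRs against 40.9% of the muscle-alone clusters. In the 597 genes with both members and clusters of all 3 libraries, the shares were 62.1% and 72.8%. Members were wider than muscle-alone clusters, with a median of 59 nt (quartiles 47 and 80) against 49 nt, and clusters of all 3 libraries had a median of 72 nt. Wider clusters have more room to meet another cluster, and the part of width in the differences of gene part was not tested.

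Positions within a gene part were compared next. Intronic members lay within 300 nt of an exon in 14.4% (13.4% to 15.5%), against 15.5% for muscle alone and 15.1% for all 3 libraries. Of the 639 members that did, 349 (54.6%) followed the upstream exon and 290 preceded the downstream exon, and the former share was 55.3% for muscle alone. The introns themselves were long, with a median of 16684 nt for members, 13355 nt for muscle alone and 10832 nt for all 3 libraries. In 3' UTRs, 32.7% (31.6% to 33.9%) of members lay within 500 nt of an annotated end, against 38.6% (37.2% to 39.99%) for muscle alone and 36.9% (33.6% to 40.4%) for all 3.

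Nearly all members carried the core motif. UGU was found in 98.9% of them (98.7% to 99.1%), leaving 130 without it, in 97.7% of muscle-alone clusters and in 99.0% of those shared by all 3. In windows of 51 nt around the midpoint, the mean number of UGU was 4.38 for members, 4.1 for muscle alone and 4.85 for all 3. These windows make the counted length equal, but the median muscle-alone cluster, at 49 nt, is narrower than the window. An alternating UG run of at least 10 nt was present in 7.66% (7.19% to 8.15%) of members, 6.77% (6.31% to 7.24%) of muscle-alone clusters and 10.2% (8.43% to 12.2%) of the clusters of all 3. The motif rose from 2.79 starts per 100 nt at the outer edge of the profile to 11.8 just before the midpoint of members.

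**Figure D2:**
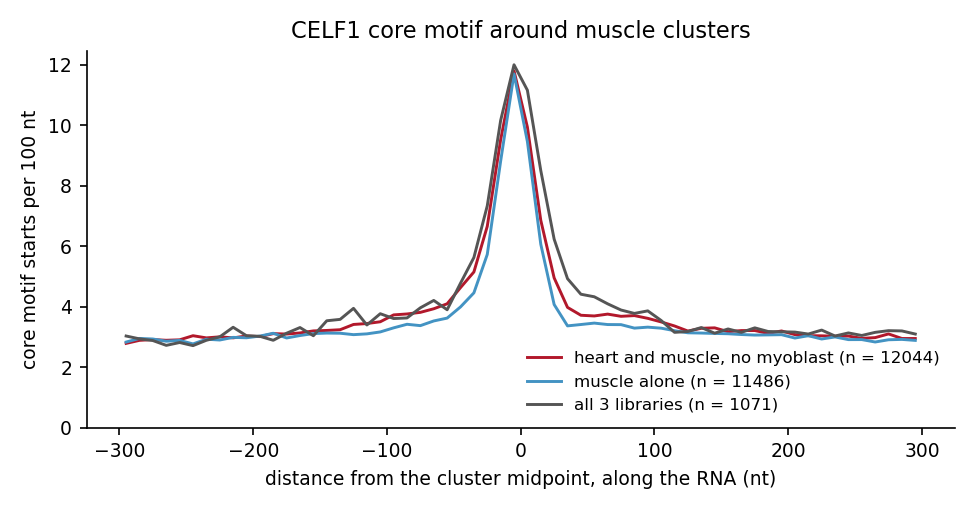
Starts of the CELF1 core motif per 100 nt (vertical axis) in bins of 10 nt against the distance from the cluster midpoint along the RNA (horizontal axis, nt), for members (red), muscle alone (blue) and all 3 libraries (grey). All 3 curves peak near the midpoint, at 11.8, 11.7 and 12, and at a distance of 25 nt they stand at 4.96, 4.08 and 6.24.

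Motifs were counted on the transcribed strand in the 51 nt window and in windows centred 250 nt to either side. UGUGU was in 44.6% of member windows and 11.7% of flanks, UUUGU in 40.8% and 13.5%, and UCUGU in 39.5% and 11.4%. Over all muscle clusters these motifs were in 43.0%, 41.4% and 36.0% of windows, members included. All 3 of them contain UGU and overlap each other in repeats. The letters UGCU or CGCU or UGCC or CGCC, which MBNL proteins bind, were in 48.6% of member windows (47.7% to 49.5%), 43.6% of flanks and 46.6% of all muscle clusters. GCAUG, bound by RBFOX proteins, was in 5.96% and 4.61% of windows and flanks. ACUAA, the core of the quaking site, was lower in windows than in flanks, at 2.11% and 3.80%, and so was AUUUA of AU-rich elements, at 4.77% and 8.0%. The Pumilio motif UGUANAUA (N for any base), which itself begins with UGU, was in 1.41% and 0.942%. Over all muscle clusters, members included, GCAUG was in 6.28% of windows, ACUAA in 2.19%, AUUUA in 5.70% and UGUANAUA in 1.59%. For each of these motifs the member share was thus near or below that of all muscle clusters. A match says only that the letters are present.

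The leading words differed between introns and 3' UTRs. In 3' UTRs the 5-letter word with the highest ratio of window to flank among members was UGUGU, at 3.84. In introns it was GUCUG at 8.90, followed by UGUCU at 8.02. UCUGU was in 55.1% (53.6% to 56.5%) of intronic member windows, against 39.7% (38.5% to 41.0%) for intronic muscle-alone clusters, 61.8% (55.4% to 67.8%) for intronic clusters of all 3 libraries and 12.2% of the members' flanks. The repeat UCUGUCUG, seen above in Rora and added after these values were known, was in 14.8% (13.7% to 15.8%) of intronic members, 5.57% (5.00% to 6.19%) of intronic muscle-alone clusters, 20.7% (15.9% to 26.3%) of intronic clusters of all 3 libraries and 0.733% of the flanks. In introns of genes that held both classes the repeat was in 14.1% of members and 4.96% of muscle-alone clusters, and among clusters 45 to 60 nt wide in 15.0% and 5.29%. In 3' UTRs it was rare, at 1.34% of members and 0.740% of muscle-alone clusters. There UGUGU was in 35.4% (34.3% to 36.5%) of members, 27.5% of muscle-alone clusters and 41.0% of those of all 3.

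Whether the gene of a member was bound elsewhere in myoblasts was asked next. Of the members, 6134 (50.9%, 50.0% to 51.8%) lay in 2092 genes with 0 myoblast clusters, and 5910 lay in 1450 genes with a myoblast cluster at another place. Genes with 0 myoblast clusters were 59.1% of the genes with members, and 63.6% of all genes with a muscle cluster. The share of muscle clusters that were members was 48.0% in genes with 0 myoblast clusters, 48.9% in genes with any and 45.7% in genes with at least 5. In the first group no cluster could be removed for meeting a myoblast cluster. The share of muscle clusters that met heart, whatever the myoblast list held, was 48.0% (47.2% to 48.9%) in genes with 0 myoblast clusters and 57.8% (56.9% to 58.7%) in genes with any. 3' UTRs held 56.7% of members in genes with 0 myoblast clusters and 56.2% in genes bound elsewhere, and the mean number of UGU per window was 4.38 and 4.39. Coding exons held 5.79% (5.22% to 6.40%) and 3.18% (2.75% to 3.66%), and 42 of the 355 coding members of the former lay in Ttn alone. Intronic members lay within 300 nt of an exon in 16.8% (15.3% to 18.5%) in genes with 0 myoblast clusters and in 12.03% (10.7% to 13.5%) in genes bound elsewhere, and 3' UTR members within 500 nt of an end in 34.8% (33.2% to 36.4%) and 30.6% (29.1% to 32.2%).

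In the genes bound elsewhere, the nearest myoblast cluster of the same gene was a median of 5132 nt from the member. It was within 50 nt for 303 members (5.13%), within 500 nt for 1331 (22.5%) and within 10000 nt for 57.7%. The median was 1198 nt for the 3322 members in 3' UTRs and 16013 nt for the 2237 in introns. The gene of a 3' UTR member had a myoblast 3' UTR cluster in 64.7% (63.1% to 66.4%), and in 34.2% it had one in an intron and none in the 3' UTR. The gene of an intronic member had a myoblast intron cluster in 89.3% (87.9% to 90.5%). For the 188 coding members, 20 (10.6%) had a myoblast cluster in the coding region of the same gene, and myoblast clusters in coding exons numbered 193 in all.

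Members were spread over many genes. 1306 genes held 1 member, 209 held at least 10, 32 at least 20, and the 10 genes with the most held 479 members (3.98%). Genes with more members were longer. Among genes matched to the annotation, those with 1 member had a median length of 31487 nt and a median 3' UTR of 1423 nt, those with 2 to 4 members 42845 and 1904 nt, and those with 10 or more 127501 and 3309 nt. The share with 0 myoblast clusters went the other way, at 68.3%, 59.9% and 36.5%.

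Ttn, for titin, the giant spring protein of the sarcomere (Entrez 22138, chr2:76542037-76820604, minus strand), led with 124 members. It had 184 heart, 177 muscle and 0 myoblast clusters, and its members were 77 in introns, 42 in coding exons and 5 in the 3' UTR. Dmd, for dystrophin, which links the cytoskeleton to the membrane (Entrez 13405, chrX:80194209-82451480, plus strand), had 76 members, 72 of them in introns, with 150 heart, 119 muscle and 0 myoblast clusters. In both genes most muscle clusters met heart.

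Transcription factor genes followed. Rora, for a nuclear receptor of the circadian clock (Entrez 19883), had 104 heart, 76 muscle and 0 myoblast clusters and 49 members, and all of them were intronic although its annotated 3' UTR is 9288 nt long. Zbtb16, for the zinc finger protein PLZF, had 92, 50 and 0 clusters and 44 members, 38 in introns. Sox6, for a repressor of slow fibre genes, had 68, 84 and 0 clusters and 35 members. Nfia, a nuclear factor I gene, had 84, 44 and 0 clusters and 32 members, of which 12 were in the 3' UTR. Zbtb16 thus had 44 of 50 muscle clusters met by heart and Sox6 35 of 84.

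Among the other genes with the most members, Cacna2d1, for an auxiliary subunit of voltage-gated calcium channels, had 54 heart, 48 muscle and 3 myoblast clusters and 31 members, 17 of them in the 3' UTR. Kif1b, for a kinesin that carries cargo along microtubules, had 45, 45 and 3 clusters and 30 members, 25 in the 3' UTR. Qk, for the RNA-binding protein quaking, had 65, 38 and 2 clusters and 29 members, 27 in the 3' UTR. Rbfox1, for a splicing regulator of muscle and neurons, had 51, 101 and 0 clusters and 29 members, 22 in introns. The members of Qk and Kif1b thus lay mainly in 3' UTRs and those of Rbfox1 mainly in introns, which describes the members alone.

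The remaining leaders with 0 myoblast clusters were Pde4dip, Cpeb3 and Prkaa2. Pde4dip, for myomegalin, had 57 heart and 36 muscle clusters and 28 members, 24 in introns. Cpeb3, for a regulator of translation, had 46 and 24 clusters and 21 members, 17 in the 3' UTR. Prkaa2, for the alpha 2 catalytic subunit of AMP-activated kinase, had 24 and 33 clusters and 21 members, 20 of them in the 3' UTR.

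**Figure D3:**
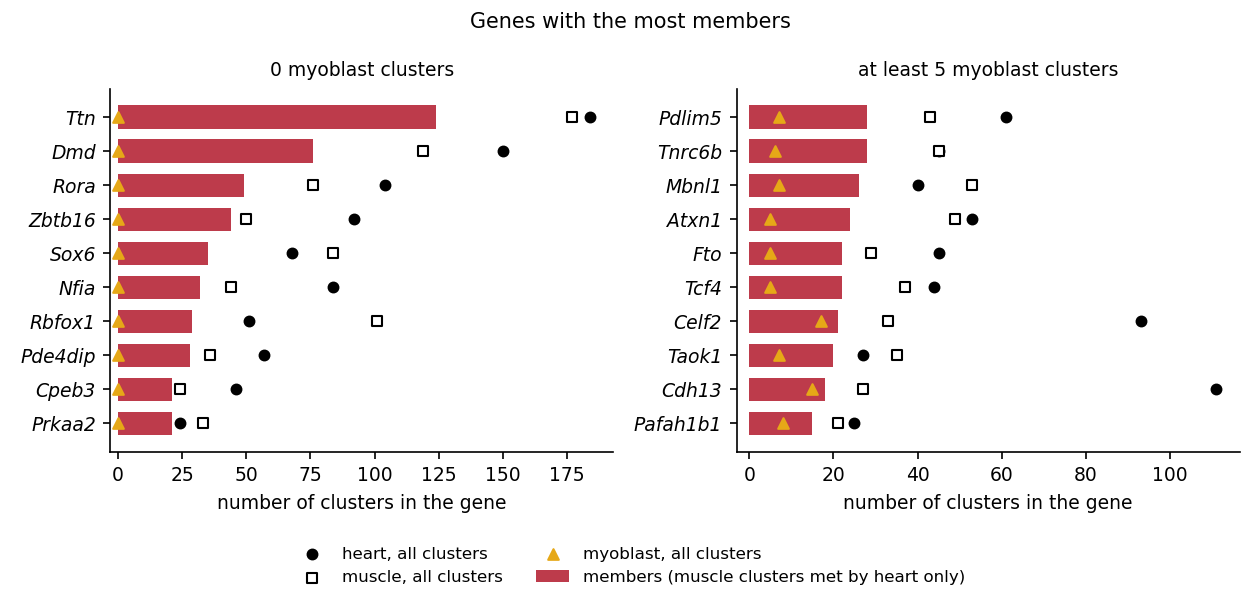
Members per gene (red bars) with all heart (filled circles), muscle (open squares) and myoblast (triangles) clusters of the same gene (horizontal axis, number of clusters), for the 10 genes with the most members among those with 0 myoblast clusters (left) and among those with at least 5 (right). Ttn and Dmd stand apart at 124 and 76 members, and the genes on the right hold 15 to 28.

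In genes with at least 5 myoblast clusters, members and myoblast sites could lie close together. There were 127 such genes with 837 members. Pdlim5, for a PDZ-LIM protein of the Z-disc, had 61 heart, 43 muscle and 7 myoblast clusters, 28 members and 3 muscle clusters shared by all 3 libraries. Tnrc6b, whose product acts with Argonaute in microRNA silencing, had 45, 45 and 6 clusters and 28 members, 24 of them in its 3' UTR of 11613 nt. In that 3' UTR, 4 muscle clusters were shared by all 3 libraries and 3 were found in muscle alone, and the nearest member was 33 nt from a myoblast cluster. Mbnl1, for the splicing regulator muscleblind, had 40, 53 and 7 clusters and 26 members, 12 in the 3' UTR and 13 in introns, with 6 clusters shared by all 3 and a smallest gap of 9 nt.

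**Figure D4:**
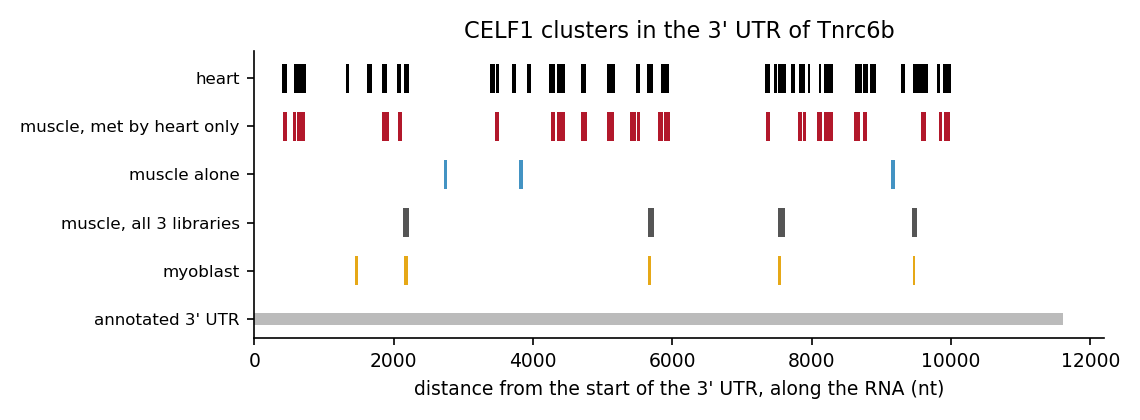
Clusters in the 3' UTR of Tnrc6b by distance from its start along the RNA (horizontal axis, nt), with 1 line per kind: 35 heart clusters (black), 24 members (red), 3 of muscle alone (blue), 4 of muscle shared by all 3 libraries (grey) and 5 myoblast clusters (yellow). Members occur along most of the 11613 nt, and the 5 myoblast clusters are scattered between them.

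Celf2, a paralog of Celf1, had 93 heart, 33 muscle and 17 myoblast clusters and 21 members, with a median gap of 314 nt. Cdh13, for T-cadherin, had 111, 27 and 15 clusters and 18 members, all of them intronic, as were all its myoblast clusters. Pafah1b1, for the dynein regulator LIS1, had 25, 21 and 8 clusters and 15 members, all in the 3' UTR and at a median gap of 217 nt. Taok1, a kinase gene, had 20 members, all in the 3' UTR, and 7 myoblast clusters. Atxn1, Fto and Tcf4 had 24, 22 and 22 members and 5 myoblast clusters each, and the median gap was 84899 nt in Atxn1, 106894 nt in Fto and 1210 nt in Tcf4. Celf1 itself, whose product the antibody binds, had 21, 22 and 5 clusters and 12 members, 6 in the 3' UTR and 6 in introns.

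Gene lists were then compared with the 48.5% of all muscle clusters that were members. No list was tested, and a share depends first on whether heart binds the gene. The number of genes that hold a member also depends on how many muscle clusters each gene has. Of the 39 muscle-bound sarcomere and Z-disc genes, 26 held members, near the 66.3% of all genes with a muscle cluster. Of the 534 muscle clusters of this list, 282 were members (52.8%, 48.5% to 57.1%). Ttn alone held 124 of these members and 177 of these muscle clusters, so the list's share rests largely on 1 gene. Myom1, for myomesin of the M band, had 32 heart and 27 muscle clusters, 0 in myoblasts and 20 members, and Palld, for palladin, had 76, 30 and 4 clusters and 23 members, all intronic. The dystrophin complex and membrane cytoskeleton list had 217 members of 380 clusters (57.1%, 52.0% to 62.1%), led by Dmd, Ank3 (ankyrin G, 26 members), Dtna (alpha-dystrobrevin, 14) and Dst (dystonin, 13). In calcium handling and ion channels the share was lower, with 176 of 466 (37.8%, 33.4% to 42.3%). Its leaders after Cacna2d1 were Asph with 16 members, Atp2a2, for the calcium pump SERCA2, with 13 and Camk2a with 12.

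Energy metabolism genes had shares above that of all muscle clusters. Fuel metabolism and energy sensing genes had 252 members of 439 muscle clusters (57.4%, 52.6% to 62.1%), and 146 of the 252 were in 3' UTRs. Of the 44 muscle-bound genes, 43 held members, against 66.3% of all genes with a muscle cluster. These 44 genes held 439 muscle clusters, and all 5341 genes held 24844, so the list's genes had more clusters each. A gene with more muscle clusters has more room to hold a member, and the part of this in the gene count was not tested. After Prkaa2 the list's leaders included the nuclear receptor gene Esrrg with 12, all in the 3' UTR, and Pfkm, for muscle phosphofructokinase, with 12, both with 0 myoblast clusters. Nuclear-encoded oxidative phosphorylation genes had 50 of 68 (73.5%, 61.4% to 83.5%), and 21 of the 50 were in coding exons. Ndufs1 of complex I had 8 members, 5 of them coding. Sdha of complex II had 6, all in the 3' UTR, and Atp5a1 of the ATP synthase had 6. Circadian clock genes had 97 of 159 (61.0%, 53.0% to 68.6%), led by Rora with 49, which also stands on the list of transcription factors. Hlf, Clock and Nr1d2 had 8, 6 and 6, all in 3' UTRs.

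Regulators of RNA and transcription and transport genes followed. RNA-binding protein genes had 376 of 692 (54.3%, 50.5% to 58.1%), 246 of them in 3' UTRs, and 41 of the list's genes had a myoblast cluster, so that 25.5% of its members were in genes with 0. Msi2, for a translation regulator, had 69 heart, 42 muscle and 1 myoblast clusters and 28 members, 21 in the 3' UTR. Transcription factors of muscle and heart had 325 of 623 (52.2%, 48.2% to 56.2%), 220 in introns. Besides those above, Zbtb20 had 58, 36 and 1 clusters and 24 members, all intronic. Microtubule motors and transport genes had 210 of 351 (59.8%, 54.5% to 65.0%), with Hook3, an adaptor of dynein, at 16 members in the 3' UTR and Clip1, for a microtubule end binding protein, at 15 in introns. Vesicle and protein transport had 105 of 207 (50.7%), led by Rab10 with 7 members, Ap1g1 with 6 and Rab18 with 6. Ubiquitin ligases and proteolysis had 218 of 434 (50.2%), led by Usp13 with 14, Nedd4 with 13, Ubr3 with 12 and Fbxw11 with 10.

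**Figure D5:**
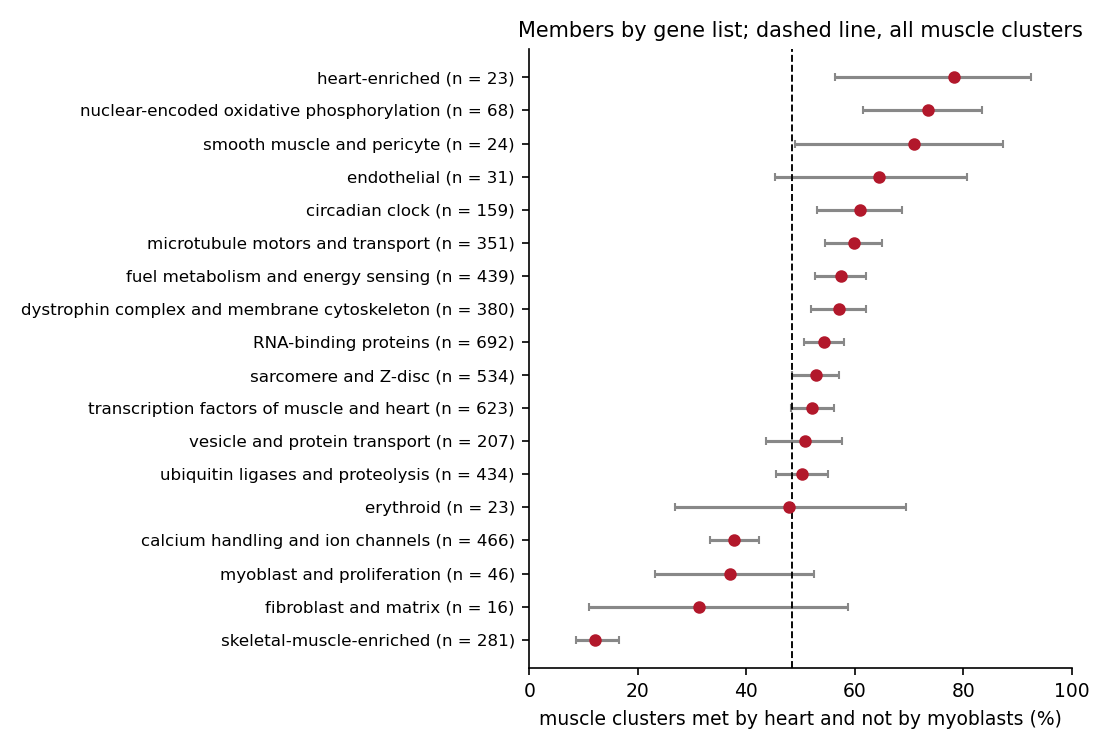
The share of muscle clusters that were members (horizontal axis, percent) for gene lists with at least 10 muscle clusters (n beside each name), as points with exact 95% intervals. The dashed line marks the 48.5% of all muscle clusters, and the lists run from 12.1% for skeletal-muscle-enriched to 78.3% for heart-enriched genes.

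Lists that mark the sources moved with the rule. Skeletal-muscle-enriched genes had 281 muscle clusters and 44 in heart, and 34 were members (12.1%, 8.53% to 16.5%). Phka1 of phosphorylase kinase had 12 members of 33 muscle clusters, Atp2a1, for the calcium pump SERCA1, 9 of 18, the chloride channel gene Clcn1 3 of 8 and the calsequestrin gene Casq1 2 of 3. Ryr1 had 2 of 49 and Neb 0 of 50. Heart-enriched genes had 892 heart and 23 muscle clusters, of which 18 were members (78.3%, 56.3% to 92.5%). Of these, 11 were in the sodium-calcium exchanger gene Slc8a1, 6 in the calcium channel gene Cacna1c and 1 in Tnnt2. Myoblast and proliferation genes had 100 myoblast, 82 heart and 46 muscle clusters and 17 members (37.0%, 23.2% to 52.5%), 8 of them in Nucks1, 4 in Tgfbr1, 3 in Ccnd2 and 2 in Ccnd3.

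Both tissues hold other cell types that a pure culture lacks, and the lists of their markers were short. Endothelial genes had 20 members of 31 muscle clusters (64.5%, 45.4% to 80.8%) with 107 heart clusters and 1 in myoblasts, among them Flt1 with 8 and Fli1 and Pecam1 with 4 each. Smooth muscle and pericyte genes had 17 of 24 (70.8%, 48.9% to 87.4%), with Rgs5 at 7 and Smtn at 5. This list also counts Des, for desmin, with 2 members, which is a gene of muscle fibres as well. Erythroid genes had 11 of 23, of which Epb41, also a cytoskeletal gene of other cells, held 8. Fibroblast and matrix genes had 5 of 16, adipocyte genes 3 of 8, macrophage and immune genes 1 of 3 and Schwann cell and nerve genes 1 of 3. The 7 lists of other cell types held 58 members of 108 muscle clusters together (53.7%, 43.9% to 63.4%), which were 0.482% of all members and 0.435% of all muscle clusters, and the part of these cells in the remaining members was not tested.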

How the data were processed

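CELF1 CLIP-seq was deposited for 3 libraries (adult heart ventricle, adult muscle and C2C12 myoblasts), grouped by the cell or tissue type in the labels. Before deposition, the authors removed duplicate reads and adapters, placed uniquely mapping reads on mm9 and its splice junctions (the processing notes name Bowtie and TopHat, no versions given here), and called clusters separately in each library in windows of 30 nt by comparison with the number of reads that the gene's own expression and length would place there. A site in a weakly expressed or repeated sequence can therefore be missed. The deposited lists hold start, end, strand and Entrez identifier of each cluster. A further column holds 1e-06 throughout and was not used, and no read numbers per cluster are given, so no interval for a single cluster can be made. The text file with adapter sequences was not used.

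Overlap needed 1 base on the same strand and was checked against bedtools 2.31.1 and tested on simulated data. Positions are mm9, counted from 1. Gene parts come from GENCODE vM1 on NCBIM37 by cluster midpoint, with 3' UTR first, then coding exon, 5' UTR and intron, and 7981 of 8037 gene identifiers (99.3%) were matched by symbol or synonym, and RefSeq (GRCm38.p6) served for gene names alone. Python 3.11.15, pandas 2.3.3, scipy 1.17.1 and pysam 0.24.0 were used. With 1 library per group no test between groups was made.

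The members, the 21 gene lists and the alternatives were chosen with earlier results of these data known. Named genes were the 10 with the most members, the 10 among genes with 0 myoblast clusters, the 10 among genes with at least 5, and the 4 with the most members per list, with ties by symbol, and printed sequences were the members with the most UGU in the first 5 genes of each group. 1 gene and 1 sequence that these rules select are not reported here. Ryr1, Ryr2, Neb, Hmga2 and Celf1 were named outside that rule, after their values were seen. Alternatives changed the overlap, the gap to myoblast clusters, the counted library, the cluster width and the weight of single genes.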

Additional observations from a re-analysis of the deposited data

How the results depend on the processing

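The number of members was 12044 and stayed within 1.5 times of it in all alternatives except 1 cluster a gene, where it is the number of genes, 3542. With 1 cluster a gene the share of muscle genes with a member was 66.3%, members were in 3' UTRs in 62.9% and in introns in 30.8%, held UGU in 99.5%, and were in genes with 0 myoblast clusters in 59.1%. An overlap of 50% of both clusters lowered the share of muscle clusters that were members from 48.5% to 39.8% and left UGU at 99.2%. A required gap to myoblast clusters of 50 nt gave 47.3%, with 52.2% of members in genes with 0 myoblast clusters. A gap of 500 nt gave 43.1%, with 57.3% in such genes, 52.9% in 3' UTRs and 39.8% in introns. Counted from the heart list, 28.3% of clusters met muscle and no myoblast cluster. With clusters of at least 40 nt in every library, the share was 51.3%, with 59.5% in 3' UTRs, 33.9% in introns, 99.1% with UGU and 71.8%, in place of 50.9%, in genes with 0 myoblast clusters. By construction that width leaves 1987 of 5115 myoblast clusters. Without the 10 genes with the most members, 57.8% were in 3' UTRs, 35.5% in introns and 49.7% in genes with 0 myoblast clusters. In windows of 51 nt UGU was in 98.1%. Chosen after the data were seen, 1 intronic cluster a gene gave UCUGU in 57.0% of members and 42.1% of muscle-alone clusters and UCUGUCUG in 17.0% and 6.71%, and genes with both classes gave UCUGUCUG in 4.96% of muscle-alone clusters. The other 40 of 69 alternative values stayed within the counting interval, or for the number of members within 1.5 times.

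No paired analysis was possible because each group has 1 library, and leaving out a library removes its group. The lists give no reads per cluster, and the absence of a myoblast cluster is limited by the 5115 clusters called there.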
